A study of Homo sapiens with 12 samples.

Results

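The comparison described here asks whether the response to IGF1 differed between MDA-231-LM2 cells labelled TMEM216 and their control. For each gene it takes the IGF1 difference in TMEM216 cells (TMEM216+IGF1 minus TMEM216) and subtracts the IGF1 difference in control cells (Ctrl+IGF1 minus Ctrl). The result is called the interaction, and it is 0 where both differences are equal on the log2(TPM + 1) scale. TPM is a transcript abundance corrected for length and scaled to a fixed total per library. All 12 libraries of the study entered, in 4 groups of 3, and 13071 of 21574 features were tested, those that reached 1 TPM in at least 3 libraries. MDA-231-LM2 is a subline of the human triple-negative breast cancer line MDA-MB-231 that was selected for metastasis to the lung. Ctrl and TMEM216 are the 2 cell populations, and each was profiled by RNA-seq with and without IGF1. The labels give neither the way in which TMEM216 was altered nor the dose or duration of IGF1, and they name no clone. They also do not say whether libraries came from separate cultures, and the p-values therefore rest on a spread among libraries that may be only technical.

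IGF1 is a growth factor that binds the receptor tyrosine kinase IGF1R, which acts through the adaptor proteins IRS1 and IRS2 on the PI3K-AKT and RAS-ERK pathways. Genes of the immediate early class, among them FOS, FOSB and EGR1, are transcribed within minutes of growth factor signalling, and their transcripts are short-lived. FOS proteins pair with JUN proteins to form AP-1, a transcription factor. The TMEM216 protein sits in the transition zone, a gate at the base of the primary cilium.

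The targeted gene followed the labels. TMEM216 was at 24.0 to 30.1 TPM in the 6 Ctrl and Ctrl+IGF1 libraries and at 163 to 250 TPM in the 6 TMEM216 and TMEM216+IGF1 libraries. Its own interaction was 0.06 (SE 0.20, 95% interval -0.36 to 0.49). VIM, the mesenchymal intermediate filament gene, was at 5755 to 7272 TPM in all libraries, and the oestrogen receptor gene ESR1 stayed at or below 0.204 TPM. ERBB2 and EPCAM, both expected to be low in these cells, were detectable at 31.7 to 42.9 and 11.9 to 15.7 TPM. Of 10 leukocyte markers, 8 were under 1 TPM in every library and 4 of these were listed at 0 throughout. All 7 stromal markers and 5 of 8 endothelial markers were under 1 TPM, and ESAM was the 1 endothelial marker to reach 5 TPM, at 135 to 165. The libraries correlated with each other at 0.977 to 0.99 over 66 pairs on the log2 scale, and no pair was identical. One library, Ctrl+IGF1 replicate 3, stood apart with 16.3% of its TPM in genes of cytoplasmic ribosomal proteins, where the remaining libraries had 12.0 to 14.3%. The PECAM1 and KDR markers of endothelium, at most 2.15 and 2.58 TPM, had interactions of 0.58 and 0.47, not past the threshold.

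FOS was the gene whose response to IGF1 differed between the populations. In control cells FOS was at 108, 101 and 99.7 TPM without IGF1 and at 69.2, 66.8 and 60.5 TPM with it. In TMEM216 cells it was at 76.4, 59.6 and 56.7 TPM without IGF1 and at 11.3, 10.0 and 11.7 TPM with it. All 3 TMEM216+IGF1 libraries lay below the other 9, the 3 Ctrl libraries lay above the other 9, and the Ctrl+IGF1 and TMEM216 libraries overlapped. The group means were 103 ± 4.16, 65.5 ± 4.47, 64.3 ± 10.6 and 11.0 ± 0.888 TPM (SD, n = 3 each) for Ctrl, Ctrl+IGF1, TMEM216 and TMEM216+IGF1. Means with IGF1 were thus 1.57 times lower in control cells and 5.83 times lower in TMEM216 cells.

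**Figure D1:**
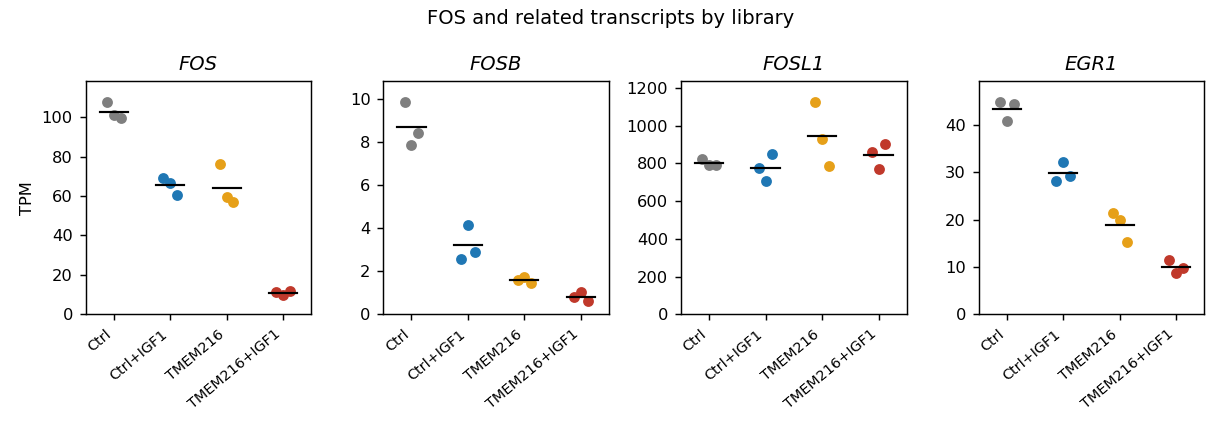
TPM (y axis, linear, from 0) of FOS, FOSB, FOSL1 and EGR1 in the 4 groups (x axis); points are the 3 libraries of a group and the bar is their mean. FOS in the TMEM216+IGF1 libraries sits between 10.0 and 11.7 TPM, below every other library, while FOSL1 libraries of the 4 groups overlap.

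The interaction of FOS was -1.79 on the log2 scale (SE 0.15, 95% interval -2.12 to -1.45, adjusted p = 0.000965, limma). With both differences simply added, the value of TPM + 1 for FOS in TMEM216+IGF1 libraries would have been 3.45 times the fitted one (95% interval 2.73 to 4.35), a ratio that includes the pseudocount of 1. The 2 single differences were of similar size: FOS was -0.64 for IGF1 in control cells (adjusted p = 0.158, not past the threshold of 0.05) and -0.68 for TMEM216 without IGF1 (adjusted p = 0.0105, limma). The IGF1 difference in control cells did not pass on leaving out any 1 of 11 libraries (adjusted p up to 0.795, limma). It passed without TMEM216 replicate 1 (adjusted p = 0.0275, limma), a library that enters this difference only through the shared spread. Without that library and Ctrl+IGF1 replicate 3 together it passed as well (0.0479). It also passed with either kind of library weights (3.84e-05 and 0.00309). Estimation of the first kind stopped before convergence, and the second kind was chosen after the data were seen. The TMEM216 call did not hold when TMEM216 replicate 2 or 1 of the 3 Ctrl libraries was dropped, with adjusted p up to 0.0694. The differences that include the TMEM216+IGF1 group were larger, -2.43 for IGF1 in TMEM216 cells (adjusted p = 5.2e-07) and -2.47 for TMEM216 with IGF1 (adjusted p = 3.6e-07). These contrasts share libraries with the interaction and are not separate evidence for it. FOS passed under all 22 alternative settings, with an interaction between -1.89 and -1.66. In bulk RNA, fewer cells with FOS transcript and less transcript per cell cannot be told apart.

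FOS was 1 of 2 features past the threshold for the interaction, or 0.0153% of the 13071 tested, with 0.00765% called in each direction. At an unadjusted p under 0.05 the interaction had 703 features, 5.38% of those tested (4.47% higher and 0.91% lower). By comparison, 143 features (1.09%, with 0.941% lower) passed for TMEM216 without IGF1, 211 (1.61%, with 0.696% lower) for TMEM216 with IGF1, 4 (0.0306%) for IGF1 in control cells and 2 (0.0153%) for IGF1 in TMEM216 cells. These percentages are the background against which the member counts stand.

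The other feature past the threshold was ENSG00000273049, an Ensembl gene without a proper symbol. It was at 1.90, 2.94 and 3.49 TPM in the 3 Ctrl libraries and listed at 0 in the other 9. Its interaction was 1.89 (SE 0.25, adjusted p = 0.0445, limma), which here reflects a level above 0 in the Ctrl group alone. In GENCODE v29 it overlaps HOXC6 and HOXC5 on the same strand, so reads could be split between them. Zeros in such a table may be failed estimates, so no fold is given. The call was lost with quantile normalization (adjusted p = 0.0534) and on leaving out any single library other than Ctrl replicate 1.

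Promoter sequences of FOS, FOSB and EGR1 are shown because these immediate early transcripts had their lowest levels in the same group, the TMEM216+IGF1 libraries. Each runs from 250 bases before to 50 bases after the RefSeq start (GRCh38.p14, plus strand), at chr14:75278578-75278877 for FOS, chr19:45467746-45468045 for FOSB and chr5:138465229-138465528 for EGR1. Capitals mark TGACG or its reverse complement, which is the core of the site bound by CREB and ATF factors, and in EGR1 also the CArG box bound by the serum response factor.
FOS: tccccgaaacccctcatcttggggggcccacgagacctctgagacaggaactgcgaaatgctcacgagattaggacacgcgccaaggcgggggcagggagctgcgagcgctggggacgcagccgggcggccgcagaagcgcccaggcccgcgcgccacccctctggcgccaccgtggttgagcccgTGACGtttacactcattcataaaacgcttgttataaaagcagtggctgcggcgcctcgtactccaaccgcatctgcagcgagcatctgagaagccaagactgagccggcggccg
FOSB: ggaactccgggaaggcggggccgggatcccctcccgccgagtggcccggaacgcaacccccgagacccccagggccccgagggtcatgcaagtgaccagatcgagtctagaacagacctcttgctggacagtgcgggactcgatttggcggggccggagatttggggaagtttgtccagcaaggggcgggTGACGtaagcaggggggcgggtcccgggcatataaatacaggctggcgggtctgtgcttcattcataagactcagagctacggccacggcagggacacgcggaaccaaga
EGR1: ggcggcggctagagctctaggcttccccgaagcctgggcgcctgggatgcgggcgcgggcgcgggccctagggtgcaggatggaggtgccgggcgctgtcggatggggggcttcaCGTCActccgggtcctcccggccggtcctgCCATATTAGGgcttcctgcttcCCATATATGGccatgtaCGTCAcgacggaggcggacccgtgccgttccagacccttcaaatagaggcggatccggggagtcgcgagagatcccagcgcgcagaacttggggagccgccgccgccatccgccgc
Both strands of these stretches were searched, and the motifs did not overlap. Sequence more than 250 bases before the start was not searched. The lack of a marked CArG box in FOS and FOSB therefore applies to these stretches only. TGACG lay 64 to 60 bases before the start in FOS and 60 to 56 bases before it in FOSB. EGR1 had it on the opposite strand at 135 to 131 and 66 to 62 bases before the start, and had CArG boxes at 105 to 96 and 83 to 74. Of 35116 promoters of this length, 24.6% held TGACG and 1.29% a CArG box, so TGACG is common, and a match is a description of the letters only.

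Among the FOS relatives, FOS alone passed for the interaction. FOSB, which encodes a close relative of FOS, was at 8.70 ± 1.02, 3.20 ± 0.831, 1.60 ± 0.149 and 0.806 ± 0.210 TPM (SD, n = 3) in Ctrl, Ctrl+IGF1, TMEM216 and TMEM216+IGF1. FOSB had an interaction of 0.69 (SE 0.23, adjusted p = 0.754), opposite in sign to that of FOS. FOSB fell with IGF1 in control cells, by 1.22 on the log2 scale (adjusted p = 0.0386, limma), and fell with TMEM216 both without IGF1 (-1.90) and with it (-1.21). The IGF1 call of FOSB held only without Ctrl+IGF1 replicate 2 or without TMEM216 replicate 1 and was lost on leaving out each of the other 10 libraries (adjusted p up to 0.296), while both TMEM216 calls held throughout. The gene overlaps ERCC1 on the opposite strand, and these are low values, for which log2(TPM + 1) understates a change.

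FOSL1, the FOS relative with the highest level in these cells, ranged from 708 to 1124 TPM over the 12 libraries. Its interaction was -0.10 (95% interval -0.46 to 0.25), so that a departure of the size seen in FOS lies outside the interval. FOSL2 gave 0.36 (95% interval -0.06 to 0.78). FOS made up 10.4% ± 0.178 of the summed TPM of FOS, FOSB, FOSL1 and FOSL2 in Ctrl libraries, 7.19% ± 0.804 in Ctrl+IGF1, 5.97% ± 0.307 in TMEM216 and 1.19% ± 0.0152 in TMEM216+IGF1 (SD, n = 3 each). The sum itself was 988 ± 23.6, 915 ± 52.8, 1077 ± 171 and 930 ± 64.8 TPM in the same order. The 3 Ctrl libraries lay above the 3 Ctrl+IGF1 libraries in this sum, and the other pairs of groups overlapped. The FOSL1 share was 81.3% in Ctrl and 90.7% in TMEM216+IGF1 libraries.

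The AP-1 partners did not pass. JUN, the main partner of FOS, had an interaction of 0.11 (95% interval -0.09 to 0.31) at levels of 132 to 153 TPM. JUNB gave -0.25 (95% interval -0.56 to 0.06) and JUND -0.01 (95% interval -0.42 to 0.41). JDP2, a repressor that pairs with JUN proteins, gave the highest value of the family, 1.17, with a wide error (SE 0.46, adjusted p = 0.754). Its Ctrl libraries were at 25.9, 21.7 and 16.9 TPM, its Ctrl+IGF1 libraries at 19.7, 6.27 and 8.81, and all 6 libraries with TMEM216 at 3.02 to 6.07 TPM. Of 18 AP-1 genes in the table, 15 were tested, 1 (FOS) passed lower and none higher at an adjusted p under 0.05, while 3 were higher and 1 lower at an unadjusted p under 0.05. Their median interaction was 0.11, beside 0.11 over all features tested.

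**Figure D2:**
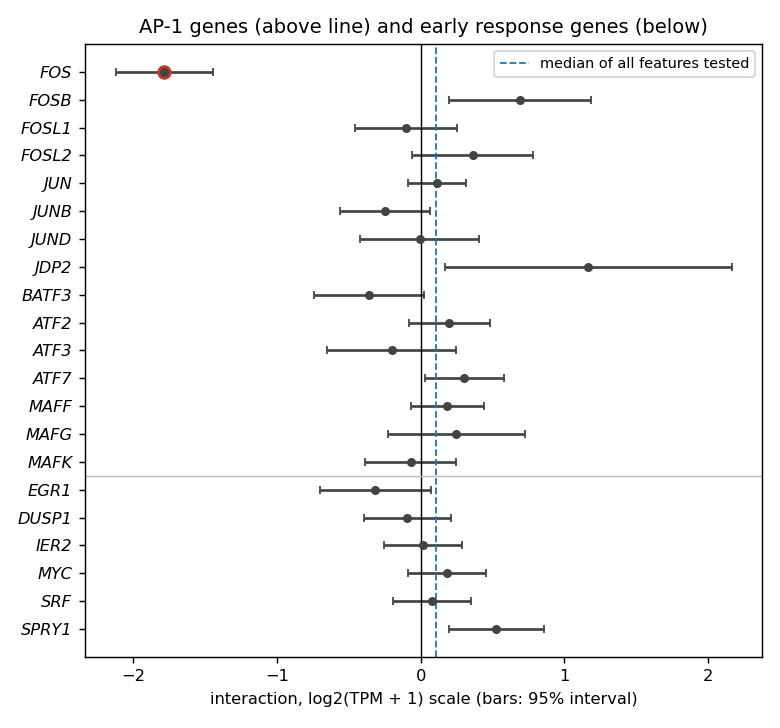
Interaction on the log2(TPM + 1) scale (x axis) of the 15 AP-1 genes tested (above the grey line) and of EGR1, DUSP1, IER2, MYC, SRF and SPRY1 (below it); points are limma estimates from 3 libraries per group, bars their 95% intervals, and the dashed line is the median of all features. The FOS interval, -2.12 to -1.45, does not meet that of any other gene drawn.

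Other early response genes had no interaction past the threshold. EGR1, a zinc finger transcription factor, was at 43.4 ± 2.18 TPM in Ctrl, 29.8 ± 2.07 in Ctrl+IGF1, 18.8 ± 3.20 in TMEM216 and 9.98 ± 1.34 in TMEM216+IGF1 (SD, n = 3), and the libraries of the 4 groups did not overlap. The EGR1 interaction was -0.31 (SE 0.18, 95% interval -0.70 to 0.07, adjusted p = 0.754, limma). EGR1 fell with TMEM216 by 1.18 on the log2 scale without IGF1 and by 1.49 with it, both past the threshold. For IGF1 in TMEM216 cells EGR1 gave -0.84 (adjusted p = 0.0587), short of the threshold, and past it (0.0115) without TMEM216 replicate 3. On leaving out each of the other 11 libraries it did not pass (adjusted p up to 0.439, limma).

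DUSP1, a phosphatase that switches off MAP kinases, had an interaction of -0.09 (95% interval -0.39 to 0.21). IER2 gave 0.02, MYC 0.18 and SRF, the serum response factor gene, 0.08, none of them past the threshold. SPRY1, an inhibitor of growth factor signalling to ERK, had the highest value of the list, 0.53 (SE 0.15, adjusted p = 0.754). SPRY1 libraries were at 47.2 to 54.8 TPM in Ctrl, 37.2 to 45.2 in Ctrl+IGF1, 49.6 to 63.0 in TMEM216 and 64.2 to 68.9 in TMEM216+IGF1. Of 35 early response and ERK feedback genes, 31 were tested, none passed in either direction with limma, and 3 were higher at an unadjusted p under 0.05, namely SPRY1, ETV4 (0.32) and CCN2 (0.39). Their median was 0.12, beside 0.11 over all features.

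Genes with the next smallest p values did not pass, and their values are given as a description. Higher values came in more than 1 form. SRSF1, a splicing factor, was at 258, 252 and 264 TPM in Ctrl, 164, 133 and 114 in Ctrl+IGF1, 141, 166 and 184 in TMEM216, and 144, 170 and 157 in TMEM216+IGF1. Only the Ctrl libraries stood apart, above the other 9. SRSF1 fell with IGF1 in control cells by 0.92 (adjusted p = 0.0425, limma) and gave -0.06 in TMEM216 cells, and its interaction was 0.87 (SE 0.18, adjusted p = 0.673). The IGF1 call was lost on leaving out 10 of the 12 libraries (adjusted p up to 0.333), that is all except Ctrl+IGF1 replicate 1 and TMEM216 replicate 1. SRSF1 overlaps another gene on the same strand, ENSG00000266086.

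PLLP, which encodes the membrane protein plasmolipin, was at 7.51, 7.42 and 7.82 TPM in Ctrl and at 4.46, 2.99 and 2.76 in Ctrl+IGF1. In TMEM216 cells it was at 6.38, 5.62 and 5.79 TPM without IGF1 and at 7.32, 6.15 and 7.49 with it. The Ctrl+IGF1 libraries were therefore the low ones. PLLP gave an interaction of 1.18 (SE 0.20, adjusted p = 0.218). It fell with IGF1 in control cells by 0.98 (adjusted p = 0.0477, limma), a call that was lost on leaving out any library other than Ctrl+IGF1 replicate 1 (adjusted p up to 0.381). PLLP overlaps ARL2BP on the opposite strand, and its interaction passed when Ctrl+IGF1 replicate 1 was left out.

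CSF3, the gene of the granulocyte growth factor G-CSF, took another form. Its libraries were at 1311 to 1352 TPM in Ctrl, 1302 to 1431 in Ctrl+IGF1, 1027 to 1091 in TMEM216 and 1360 to 1493 in TMEM216+IGF1, so the TMEM216 libraries without IGF1 were the low ones. The CSF3 interaction was 0.37 (SE 0.09, adjusted p = 0.754), and the gene fell with TMEM216 without IGF1 by 0.32 (adjusted p = 0.0288, limma) and gave 0.05 with IGF1 present (adjusted p = 0.685). The call without IGF1 was lost on leaving out any of 7 libraries, with adjusted p up to 0.14: the 3 Ctrl libraries, the 3 TMEM216 libraries and TMEM216+IGF1 replicate 1. For LAT2 (0.56) and CHPF (0.44) the TMEM216 libraries were likewise the lowest of the 4 groups without overlap. LAT2 encodes an adaptor of immune receptors and CHPF a chondroitin polymerizing factor.

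KDM3A, a histone H3 lysine 9 demethylase, was at 31.9 to 33.2 TPM in Ctrl, 25.1 to 29.2 in Ctrl+IGF1, 29.2 to 32.4 in TMEM216 and 35.1 to 37.8 in TMEM216+IGF1, with an interaction of 0.50 (SE 0.11, adjusted p = 0.754). The TMEM216+IGF1 libraries of SEMA6B (0.44) and TINAGL1 (0.40) were also above all others. SEMA6B encodes a semaphorin and TINAGL1 a matrix protein. PTPRF, a receptor phosphatase gene, gave 0.55 and MFAP3L 0.71, both with an adjusted p of 0.754 from limma.

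On the lower side, ADM and FAM24B had their low values in the group where FOS was low. ADM, the gene of the vasodilator peptide adrenomedullin, was at 194 to 203 TPM in Ctrl, 182 to 198 in Ctrl+IGF1, 173 to 205 in TMEM216 and 139 to 150 in TMEM216+IGF1. FAM24B was at 15.7 to 17.0, 12.9 to 15.8, 12.9 to 14.3 and 8.35 to 8.92 TPM in the same order. In both genes every TMEM216+IGF1 library was below the other 9. The interactions were -0.34 for ADM (SE 0.10) and -0.42 for FAM24B (SE 0.13), each with an adjusted p of 0.754. Both fell with TMEM216 in the presence of IGF1, ADM by 0.39 (adjusted p = 0.0208, limma) and FAM24B by 0.66 (adjusted p = 0.00362, limma). The ADM call was lost without Ctrl+IGF1 replicate 1, TMEM216+IGF1 replicate 1 or TMEM216+IGF1 replicate 2 (adjusted p up to 0.109), and the FAM24B call held on leaving out each of the 12 libraries.

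**Figure D3:**
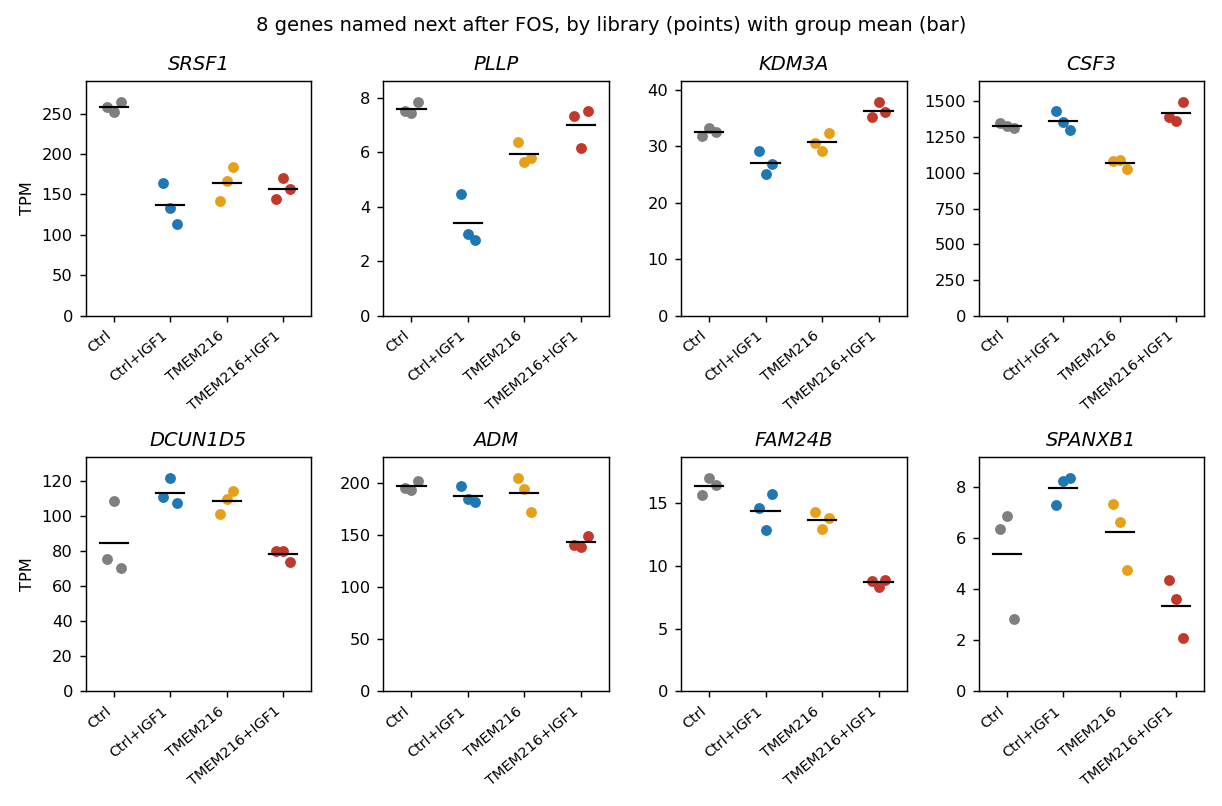
TPM (y axes, linear, from 0) of SRSF1, PLLP, KDM3A, CSF3, DCUN1D5, ADM, FAM24B and SPANXB1 in the 4 groups (x axis); points are the 3 libraries of a group and the bar is their mean. The group that stands apart differs between genes: Ctrl for SRSF1, Ctrl+IGF1 for PLLP, TMEM216 for CSF3, and TMEM216+IGF1 for ADM and FAM24B.

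DCUN1D5, which takes part in cullin neddylation, had opposite differences in the 2 populations. It was at 75.8, 109 and 70.8 TPM in Ctrl, 111, 122 and 108 in Ctrl+IGF1, 102, 110 and 114 in TMEM216, and 80.1, 80.4 and 74.2 in TMEM216+IGF1. Its interaction was -0.90 (SE 0.19, adjusted p = 0.673), and Ctrl replicate 2 stood with the higher groups. Without Ctrl replicate 2 the DCUN1D5 interaction was past the threshold. SPANXB1, a cancer-testis gene, gave -1.31 with a large error (SE 0.38) at levels of 2.10 to 8.36 TPM. The other genes on this side were TOMM40 (-0.32), the channel of the outer mitochondrial membrane, GLRX2 (-0.66), a mitochondrial glutaredoxin, NAA20 (-0.43), an acetyltransferase subunit, SCRN3 (-0.59) and ARG2 (-0.35), a mitochondrial arginase. None of them passed. GLRX2 and ARG2 overlap other genes, RO60 and VTI1B.

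Over the 12 libraries, the named genes whose log2(TPM + 1) followed FOS most closely were FAM24B (Pearson r = 0.971), ADM (0.959), EGR1 (0.913), KLF15 (0.846) and NAA20 (0.803), out of 164 named genes. The 12 points come from 4 groups, so these values describe group differences as much as differences between libraries. The rule for naming each of these genes used the interaction itself. ADM, FAM24B and NAA20 were chosen by smallest interaction p among genes with a negative value. EGR1 and KLF15 were chosen by smallest interaction p within their lists. Their likeness to FOS is therefore not separate from that choice.

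The receptor side of the IGF1 pathway had no member past the threshold. IGF1R, the receptor gene, was at 10.2 to 11.3 TPM in Ctrl, 6.16 to 9.06 in Ctrl+IGF1, 8.91 to 11.3 in TMEM216 and 9.18 to 10.0 in TMEM216+IGF1. The IGF1R interaction was 0.34 (SE 0.19, 95% interval -0.07 to 0.74). IRS1 gave 0.27 (95% interval -0.14 to 0.68) and IRS2 0.05 (95% interval -0.34 to 0.44). IGFBP4, a secreted protein that binds IGFs, had the smallest p of this list, with 1062 to 1083 TPM in TMEM216+IGF1 libraries against 827 to 955 TPM in all others. Its interaction was 0.26 (SE 0.07, adjusted p = 0.754). Of 33 tested IGF receptors, substrates and binding proteins, none passed in either direction with limma, 2 were higher and none lower at an unadjusted p under 0.05, and the median was 0.16.

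The 6 genes with the smallest p for TMEM216 without IGF1 at a mean TPM of at least 5, leaving out TMEM216 itself, were IL6, PCK2, EDN1, ASNS, TRIB3 and CHAC1, chosen here after their values were seen. None had an interaction past the threshold. FOS, which led the TMEM216 difference with IGF1, and FOSB, at a lower mean TPM, are described above. IL6, an inflammatory cytokine, fell by 1.06 with TMEM216 without IGF1 and by 0.95 with it, and its interaction was 0.11 (95% interval -0.08 to 0.30). EDN1, the gene of the vasoconstrictor endothelin-1, fell by 1.02 and by 1.14, with an interaction of -0.12 (95% interval -0.36 to 0.12). PCK2, a mitochondrial enzyme of gluconeogenesis, gave an interaction of 0.13 (95% interval -0.11 to 0.36).

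The remaining 3 are, like PCK2, targets of ATF4, the transcription factor of the amino acid response. ASNS, asparagine synthetase, gave -0.03 (95% interval -0.26 to 0.20) and TRIB3, a pseudokinase, 0.07 (95% interval -0.22 to 0.35). For CHAC1, which degrades glutathione, the interval was wider, -0.84 to 0.08 around -0.38. Except for CHAC1, the intervals of these 6 genes exclude a departure of 0.5 in either direction. Of 33 tested ATF4 response genes none passed with limma, 2 were higher and none lower at an unadjusted p under 0.05, and their median interaction was 0.08, or -0.00157 with quantile normalization. IL6 and PCK2 overlap genes on the opposite strand.

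Across all 13071 features the interaction had a median of 0.11, with 5% of features below -0.29 and 5% above 0.46, and 70.2% of fitted values were positive. Of the 703 features with an unadjusted p under 0.05, 584 (4.47% of all tested) were higher and 119 (0.91%) lower. This tilt moved with the scaling: with quantile normalization the median was 0.01 and the counts were 305 higher and 302 lower, and with median-of-ratios scaling the median was 0.00397 and the counts were 304 and 317. Without Ctrl+IGF1 replicate 3, the library with the high ribosomal protein share, the median was 0.05. The part of the ribosomal share in the tilt was not tested.

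The median half-width of the 95% interval was 0.395 over all features and 0.36 over the 10478 with a mean TPM of at least 5. It was under 0.5 for 84% of the latter. For most expressed genes the half-width was therefore smaller than the FOS interaction, which does not mean that a value of that size would pass. Differences smaller than this half-width were mostly not resolved for a single gene. The intervals are not adjusted for the number of features, and larger values could also miss the threshold. PLLP at 1.18 (adjusted p = 0.218, limma) and SRSF1 at 0.87 (adjusted p = 0.673, limma) did not pass.

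**Figure D4:**
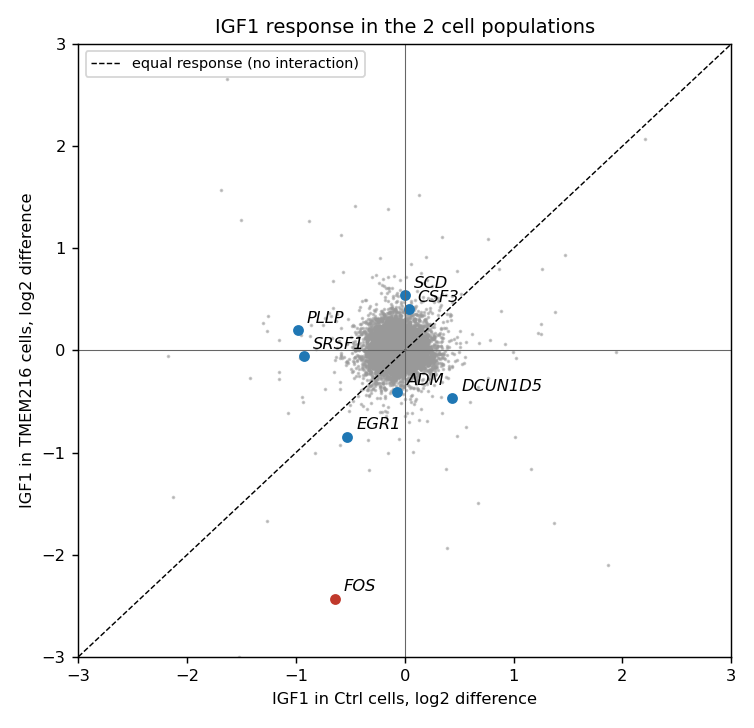
IGF1 difference (log2(TPM + 1) scale) in Ctrl cells (x axis) and in TMEM216 cells (y axis) for features with a mean TPM of at least 5; each point is 1 feature, 10475 are drawn, and 3 lie outside the axes. On the dashed line both differences are equal; FOS, at -0.64 and -2.43, is far below it, and most features form a cloud around 0 with no slope.

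The IGF1 differences of the 2 populations come from separate libraries, and across features they were nearly unrelated, with Pearson r = 0.0127 and Spearman rho = -0.00836 over 13071 features and r = 0.0154 over the 10478 with a mean TPM of at least 5. This is a description across genes, which are not independent replicates. Over all features the SD of these differences was 0.204 in both populations. The median SE of the interaction, which combines both differences, was 0.181. A single difference has a smaller SE, for FOS 0.109 beside 0.155 for its interaction. Error lowers r, by an amount that was not tested, so an r near 0 does not show that the populations responded differently. The 4 features called for IGF1 in control cells, all lower, were ENSG00000273049, FOSB, SRSF1 and PLLP. The 2 called in TMEM216 cells, both lower, were FOS and an assembled feature without a gene name. No feature was called in both populations, but a call in 1 population and not in the other does not show a difference, and only FOS and ENSG00000273049 passed the test of the difference itself.

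Gene lists were described by their members past the threshold and by their median interaction, beside the median of 0.11 over all features. Of 40 lists, 39 had a tested member and only the AP-1 list had one past the threshold. The medians of 36 lists were above 0 and those of 3 below, where 70.2% of all features tested were above 0. Against the median of all features, 29 lists were over and 10 under. The 76 genes of cytoplasmic ribosomal proteins had the lowest median, -0.23, with 7 members above and 69 below 0, none past the threshold and 7 lower at an unadjusted p under 0.05. RPL10A (-0.21, SE 0.07) and RPL11 (-0.32, SE 0.12) had the smallest p values of that list. The list's median was -0.12 without Ctrl+IGF1 replicate 3, -0.11 with quantile normalization and -0.35 with median-of-ratios scaling. Over the 22 alternatives it ran from -0.36 to -0.04, the latter on dropping both TMEM216 replicate 1 and Ctrl+IGF1 replicate 3. The 51 nuclear genes of oxidative phosphorylation followed with a median of -0.12 (-0.23 to -0.02 over the alternatives), and 1 of them, UQCRH (-0.32), was lower at an unadjusted p under 0.05.

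Setting aside the marker lists of cell types, of which the endothelial one had a median of 0.47 over 3 tested genes, the highest median was that of the integrin and focal adhesion list, whose 27 tested members had a median of 0.27, 24 of them above 0, none past the threshold and 3 higher at an unadjusted p under 0.05. ITGB4 gave 0.33 (SE 0.10), ITGA3 0.27 (SE 0.11) and ITGA5 0.35 (SE 0.15), all integrin chains. This list's median was 0.15 without Ctrl+IGF1 replicate 3 and ran from 0.03, without that library and TMEM216 replicate 1 together, to 0.33 over the 22 alternatives. Endoplasmic reticulum chaperones and unfolded protein response genes had a median of 0.22 over 27 members (0.07 to 0.32 over the alternatives), with HSP90B1 at 0.34 (SE 0.10), HSPA5 at 0.42 (SE 0.14) and P4HB at 0.28 (SE 0.10). HSPA5, the main chaperone of that compartment, was at 400 to 402 TPM in Ctrl, 318 to 435 in Ctrl+IGF1, 364 to 411 in TMEM216 and 482 to 515 in TMEM216+IGF1. None of these members passed with limma, while 6 of the 27 were higher and none lower at an unadjusted p under 0.05.

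**Figure D5:**
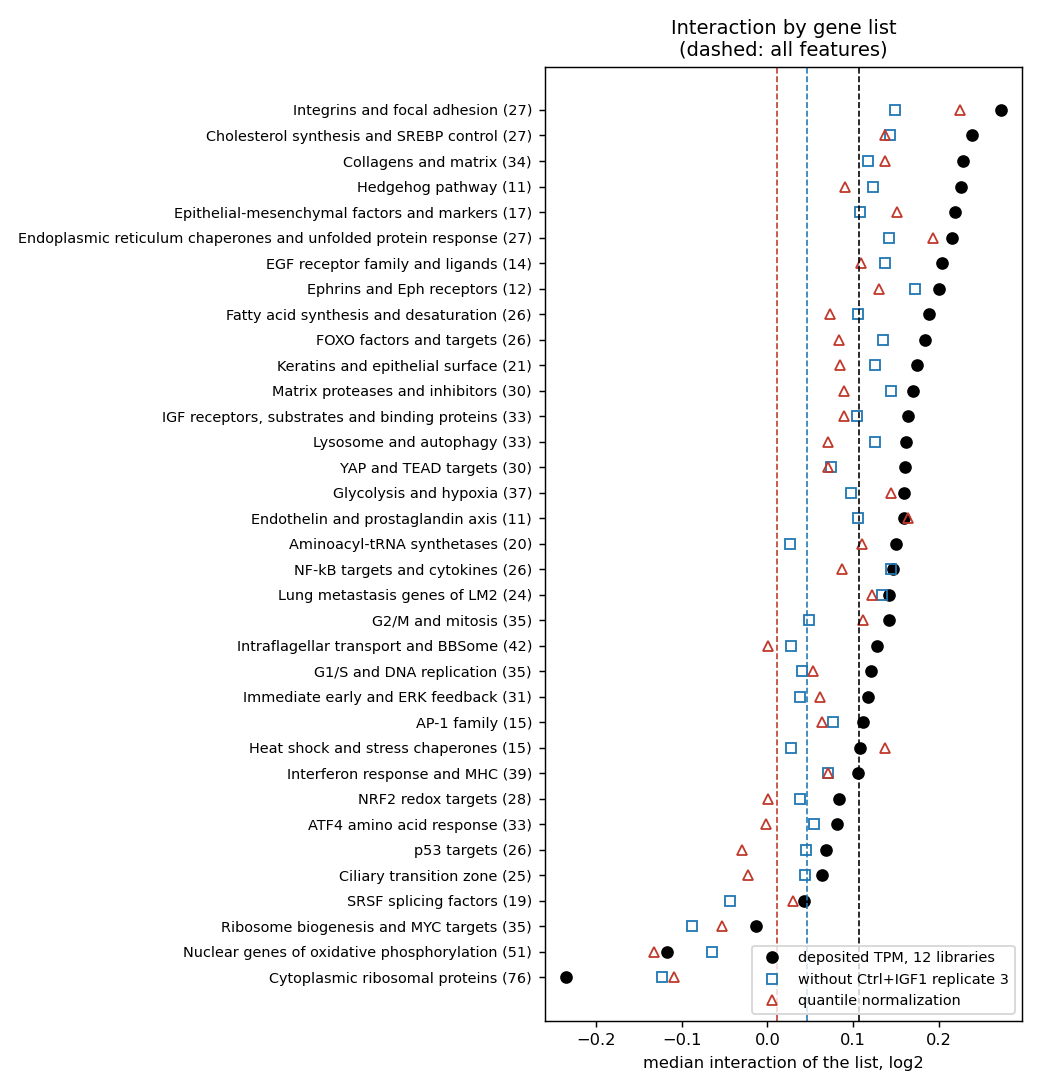
Median interaction (log2 scale, x axis) of the gene lists (y axis, tested members in brackets) from the deposited TPM (circles), without Ctrl+IGF1 replicate 3 (squares) and with quantile normalization (triangles); dashed lines give the median of all features under each, 0.107, 0.0468 and 0.0108. Of the lists drawn, which leave out the marker lists of cell types, cytoplasmic ribosomal proteins are lowest from the deposited TPM, at -0.23, and integrins and focal adhesion highest, at 0.27.

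Lipid synthesis lists lay on the higher side without a passing member. For cholesterol synthesis and its SREBP control the median was 0.24 over 27 genes (0.14 without Ctrl+IGF1 replicate 3, and 0.03 to 0.30 over the 22 alternatives), led by HMGCS1 (0.60, SE 0.23), an early enzyme of the pathway, and SREBF2 (0.33, SE 0.14), the gene of its regulator. Fatty acid synthesis and desaturation had a median of 0.19 over 26 genes, or 0.11 without Ctrl+IGF1 replicate 3 and 0.07 with quantile normalization. SCD, the stearoyl-CoA desaturase gene, was at 26.7 to 29.2 TPM in Ctrl, 21.7 to 32.8 in Ctrl+IGF1, 38.5 to 51.3 in TMEM216 and 61.9 to 68.3 in TMEM216+IGF1. SCD rose with TMEM216 by 0.68 without IGF1 (adjusted p = 0.0434, limma) and by 1.22 with it (adjusted p = 0.000828, limma), and its interaction of 0.54 (SE 0.20, adjusted p = 0.754) did not pass. The call without IGF1 was lost on leaving out 9 of the 12 libraries, that is all except Ctrl+IGF1 replicates 2 and 3 and TMEM216 replicate 1, and the call with IGF1 on leaving out none.

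Cilium genes, to which TMEM216 belongs, showed no member past the threshold. The 25 genes of the ciliary transition zone had a median of 0.06, with TCTN2, a tectonic protein, at 0.46 (SE 0.15). Intraflagellar transport and BBSome genes had a median of 0.13 over 42 genes, from IFT20 (-0.40, SE 0.14) to DYNC2H1 (0.50, SE 0.17), the motor of retrograde transport. The 11 tested Hedgehog pathway genes had a median of 0.23, with the coreceptor gene BOC at 0.51 (SE 0.16). The transition zone median was -0.02 with quantile normalization and the intraflagellar transport median 0.00108. Cytokine genes under NF-kB had a median of 0.15 over 26 genes. Besides CSF3, CSF1, the macrophage growth factor gene, gave 0.40 (SE 0.12) and PTGES, a prostaglandin synthase gene, 0.33 (SE 0.10), each with an adjusted p of 0.754, and both were highest in the TMEM216+IGF1 libraries, without overlap.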

How the data were processed

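RNA-seq libraries of total RNA were prepared with a TruSeq RNA kit, per the labels' protocols. The authors deposited TPM; HISAT2, StringTie and RSEM are named, without versions, in the submitters' processing notes. For the genome build, annotation and strand: not given in the sources used here. TPM holds no counts, so the depth of a library is unknown.

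From the TPM, log2(TPM + 1) was computed, and 13071 features reaching 1 TPM in at least 3 libraries were kept, of which 519 were assembled features named MSTRG. The 4 groups were fitted with limma 3.58.1 (R 4.3.3), with a mean-variance trend and no covariate. The script was tested on simulated data. Tests are two-sided, adjusted p is Benjamini-Hochberg over all features, and the threshold was 0.05. Python 3.11.15 with matplotlib 3.10.9 drew the plots.

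Named genes had an adjusted p under 0.05, a proper symbol and 5 TPM or more on average, up to 15 a direction, filled to 10 by smallest p. TMEM216, IGF1R, IRS1, IRS2 and, from each list described, up to 4 members with the smallest interaction p were added. Members and the 40 lists were chosen with earlier results of these data known. Overlap came from GENCODE v29, used for names and overlap only, and promoters from RefSeq (GRCh38.p14). The main fit did not pair libraries by replicate number, and no such pairing was evident. Alternatives were another pseudocount, other filters, 2 normalizations, no trend, library weights, a replicate block and leaving out libraries.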

Additional observations from a re-analysis of the deposited data

Results flagged for a closer look

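The effect of IGF1 on FOS differed between the 2 cell populations by the test of the difference itself, with an interaction of -1.785 (adjusted p = 0.000965, limma). FOS was lower in all 3 TMEM216+IGF1 libraries than in any other library.

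ENSG00000273049 passed the same test, with an interaction of 1.893 (adjusted p = 0.0445, limma). It was listed at 0 in every TMEM216 and TMEM216+IGF1 library, so a lower level with IGF1 could not be seen in TMEM216 cells. Whether its response to IGF1 differed between the populations is therefore not shown. The feature had a level above 0 in the 3 Ctrl libraries alone, and the call depended on the settings.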

How the results depend on the processing

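The interaction had 2 features past the threshold, 1 higher and 1 lower. FOS passed under all 22 alternatives (-1.89 to -1.66, adjusted p at most 0.00758 with limma). Quantile normalization, a pseudocount of 0.1, median-of-ratios scaling, a minimum TPM of 5 and leaving out Ctrl+IGF1 replicate 3 and TMEM216 replicate 1 together each left 1 feature, with 0 higher and 1 lower; ENSG00000273049 was lost (with the minimum of 5 it was not tested). Without a filter the count was 2, and without the mean-variance trend 3, of which 2 were lower. The fit with the replicate number as a block left 1 feature (0 higher, 1 lower), and ENSG00000273049 then had an adjusted p of 0.175. Pairing by replicate number was not evident: the deviations of 18 same-numbered pairs correlated at -0.286 to 0.165. Of the 12 libraries, 4 correlated best with their own number. With 3 libraries per group these values do not exclude a pairing. Leaving out 1 library at a time gave 1 to 3 features, 0 to 1 higher and 1 to 2 lower. Without Ctrl+IGF1 replicate 1 there were 3 (C3orf14, PLLP and FOS), and leaving out Ctrl replicate 2, TMEM216 replicate 2 or TMEM216 replicate 3 gave 2, both lower. Library weights from limma gave 3523 features (2488 higher, 1035 lower), but the estimation stopped before convergence, with Ctrl+IGF1 replicate 1 weighted at 75.3. Weights estimated gene by gene, chosen after the data were seen, gave 9 (6 higher, 3 lower). The cause of these shifts was not tested. FOS with IGF1 in control cells passed in 4 of the 22 (adjusted p 3.84e-05 to 0.0479). No result changed direction among those that were called. Depth is unknown from TPM.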
